A study of Arabidopsis thaliana with 16 samples.

Results

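Fibrillins, also called plastid lipid-associated proteins, are a family of plastid proteins that coat plastoglobules, the lipid droplets attached to thylakoid membranes, or lie on the thylakoids and in the stroma. Members bind or carry lipids such as prenylquinones, carotenoids and fatty acids, and several are known for their response to strong light and other stress in leaves. FIB5 binds the solanesyl diphosphate synthases that make the side chain of plastoquinone, the membrane carrier that passes electrons to the cytochrome b6f complex and, through it, to plastocyanin. Plastocyanin is the copper protein whose gene PETE1 is affected in the mutant examined here.

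The family is represented by 5 of the 691 genes that have a probe of their own among the 3439 probes of the array. A member is a fibrillin gene with a probe that lists no other gene. Gene descriptions were not used here, so the gene was recognised from a list of 14 Arabidopsis fibrillin loci and from RefSeq names. The members are AT2G46910 (FIB8 in that list), AT2G35490 (FIB2), AT5G09820 (FIB5), AT5G19940 (FIB6) and AT1G51110 (FIB10), each with 1 probe of its own. AT2G46910, AT2G35490 and FIB5 are also listed on probes shared with other fibrillins. Another 6 of the 14 loci appear only on probes that list several genes, and 3 appear on none.

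Total RNA was measured on 8 arrays of pete1, a mutant without one plastocyanin isoform, and on 8 arrays of the wild type (WT). Both groups were ecotype Columbia 0 and grew on soil. The labels name no tissue, age or light. Nor do they tie arrays to plants, so the spread behind each p-value is that between arrays and may be technical. In such bulk RNA, fewer cells of a type and less RNA per cell cannot be told apart. The question is how each fibrillin transcript differs between pete1 and WT.

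The deposited values are spot intensities on a linear scale from 0 to 100. The array medians ran from 0.0524 to 0.205 in pete1 and from 0.129 to 0.193 in WT, and values of 0 made up 15.8% to 24.6% of a pete1 array and 13.2% to 17.8% of a WT array. The low medians were those of pete1 replicates 1 to 4, at 0.0524 to 0.0856. Intensities were therefore quantile-normalized, values under a common floor of 0.0581 were set to it, and log2 was taken, so that -4.10 is the lowest value a probe can have. None of the 2 plastocyanin genes has a probe of its own, so the pete1 label was not checked against PETE1 itself. Arrays with consecutive replicate numbers deviate together from their group mean (median correlation across probes 0.50, against -0.30 for other arrays of a group), and each result is therefore also given over 4 averages of consecutive arrays per group.

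Over the 16 arrays 1 of the 5 fibrillins fell in pete1, none rose and 4 did not pass the limma test at an adjusted p of 0.05. The one that fell is AT2G46910, with a log2 change of -2.19. For comparison, 12.6% of all fitted probes were called, 6.19% as lower and 6.44% as higher in pete1. At an unadjusted p under 0.05 there were 2 members over the arrays, AT2G46910 and AT2G35490, and 1 over the averages, where 26.7% and 14.4% of all fitted probes were. The median log2 change was -0.17 over the 5 members and 0.04 over all 3231 fitted probes. Over the averages of consecutive arrays none of the 5 was called, where 0.774% of all probes were, and with those arrays as a random block AT2G46910 alone was called, where 4.46% of probes were.

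AT2G46910 encodes a fibrillin found on plastoglobules. Its deposited intensity had a low of 0, a median of 0 and a high of 0.0773 in pete1, against a low of 0.147, a median of 0.398 and a high of 0.482 in WT. It was listed at 0 on 5 of 8 pete1 arrays and on 0 of 8 WT arrays, and the groups did not overlap on the deposited scale, which held for 2.35% of fitted probes in that direction. Pete1 replicate 1, at 0.0773, was the highest of pete1, and WT replicates 7 and 8, at 0.147 and 0.212, were the lowest of WT. Within its array the probe stood at a median percentile of 10.4 in pete1 and of 77.2 in WT.

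After normalization AT2G46910 averaged -3.86 ± 0.63 in pete1 and -1.66 ± 0.75 in WT (log2, SD, n = 8 arrays each). It lay at the common floor on 6 of 8 pete1 arrays and on 0 of 8 WT arrays, so the size of the change depends on where the floor lies. The change of -2.19 (SE 0.33, 95% interval -2.90 to -1.49) corresponds to a 4.58-fold lower intensity with values at the floor, and passed the limma test over 16 arrays (adjusted p = 0.00041). All 8 pete1 arrays lay below the WT median and 7 of 8 below the lowest WT array. The exception was pete1 replicate 1, at -2.31, which lay above WT replicates 7 and 8, at -3.05 and -2.60.

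The averages of consecutive arrays of AT2G46910 were -3.21, -4.01, -4.10 and -4.10 in pete1 (replicates 1 and 2, 3 and 4, 5 and 6, 7 and 8), against -1.07, -1.34, -1.41 and -2.83 in WT. These averages did not overlap, as was so for 3.9% of all fitted probes in that direction, and the exact permutation test of 4 against 4 gave its smallest possible p of 0.0286. Across all probes the limma test over the averages did not call the gene (SE 0.42, adjusted p = 0.0681, interval -3.16 to -1.23), nor did it with each array's own floor (adjusted p = 0.0626) or cyclic loess (0.108). The gene was called over averages on the deposited scale (adjusted p = 0.0161), with median centring (0.0384), and without WT replicates 7 and 8 (0.0241), where 0.743%, 0.855% and 1.11% of probes were called. The last of these left out the lowest WT arrays of the gene. It was the only call among 8 fits over averages with 1 pair left out, whose adjusted p ran from 0.0241 to 0.205. With consecutive arrays as a random block the adjusted p was 0.0113.

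**Figure D1:**
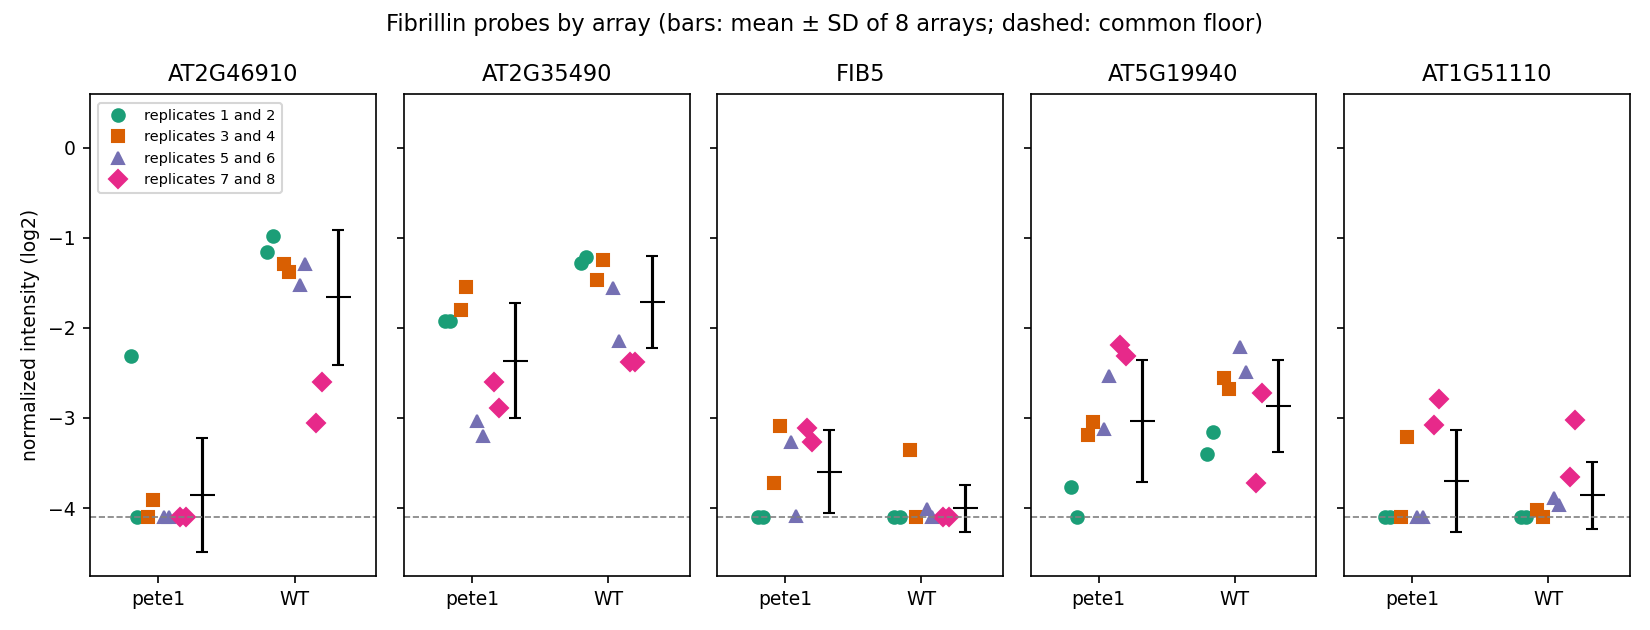
Normalized intensity (log2) of the 5 fibrillin probes on each pete1 and WT array, with 1 symbol for each pair of consecutive replicate numbers, bars for the mean ± SD of 8 arrays and a dashed line at the common floor of -4.10. AT2G46910 lies at the floor on 6 of 8 pete1 arrays and on no WT array, with pete1 replicate 1 above WT replicates 7 and 8, and the groups of the other 4 members overlap too.

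AT2G35490 is one of the fibrillins that have been linked, together with close relatives, to the supply of jasmonate under light and cold stress in Arabidopsis. Its deposited intensity had a low of 0.108, a median of 0.167 and a high of 0.226 in pete1, against a low of 0.239, a median of 0.365 and a high of 0.415 in WT. The groups did not overlap on that scale, which held for 2.35% of fitted probes in that direction. Among the members only AT2G46910 shared this. Pete1 replicates 1 and 2 were the lowest, at 0.108 and 0.112, and these are also the arrays with the highest shares of 0 values.

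After normalization the groups of AT2G35490 overlapped, with -2.36 ± 0.64 in pete1 and -1.71 ± 0.51 in WT (log2, SD, n = 8 arrays each). All 8 pete1 arrays lay below the WT median, and 4 below the lowest WT array. The change of -0.65 (SE 0.28, interval -1.25 to -0.06) did not pass the limma test (adjusted p = 0.145 over arrays and 0.508 over averages, exact permutation p = 0.0415 over arrays and 0.200 over averages). With a block for each replicate number it did pass over arrays, where 566 of 3231 fitted probes were called. No label explains those numbers, although 15 of 16 arrays matched their own number best in the other group. Whether the arrays are paired by number is not settled, and the main fit has no block. Without normalization between arrays the change was -1.03 and passed over arrays (adjusted p = 0.0059), where 10.3% of probes were called lower, but not over averages (0.258). On that scale the median of all probes was shifted by -0.30, and relative to it AT2G35490 had a change of -0.73.

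The level of AT2G35490 also differed between arrays of the same group. In pete1 it ran from -1.93 to -1.54 on replicates 1 to 4 and from -3.20 to -2.60 on replicates 5 to 8. In WT replicates 1 to 5 lay between -1.56 and -1.21, and replicates 6 to 8 between -2.38 and -2.15. Within replicates 1 to 4 alone the change was -0.50 (adjusted p = 0.12), and within replicates 5 to 8 alone -0.81 (adjusted p = 0.0688). AT2G46910 had changes of -2.40 and -1.99 in these subsets and was called in each (adjusted p = 0.0112 and 0.0135), where 11% and 13.6% of probes were called. FIB5 had 0.16 and 0.65 and AT1G51110 had 0.20 and 0.11, none of which passed. Both subsets were chosen after seeing the data. Their p-values count consecutive arrays, which deviate together, as separate, and no averages were fitted within them.

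**Figure D2:**
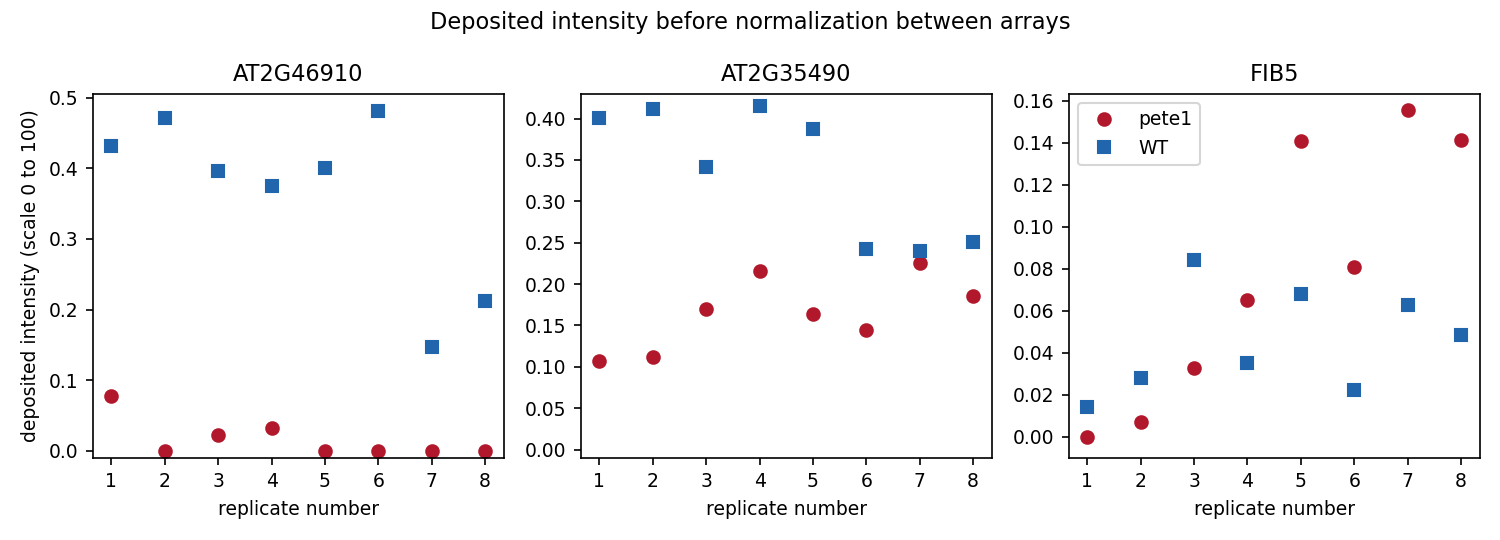
Deposited intensity (linear scale of 0 to 100) of AT2G46910, AT2G35490 and FIB5 by replicate number, with circles for pete1 and squares for WT. The pete1 arrays lie below every WT array for AT2G46910 and AT2G35490, and the groups overlap for FIB5.

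FIB5, the fibrillin needed for plastoquinone synthesis in Arabidopsis, lay near the limit of measurement. Its deposited intensity had a low of 0, a median of 0.0731 and a high of 0.156 in pete1, against a low of 0.0142, a median of 0.0417 and a high of 0.0844 in WT. After normalization it was above the common floor on 6 of 8 pete1 arrays and on 2 of 8 WT arrays (replicates 3 and 5). It averaged -3.60 ± 0.46 in pete1 and -4.00 ± 0.26 in WT (log2, SD, n = 8 arrays each).

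The change of FIB5 was 0.40 (SE 0.20, interval -0.01 to 0.82) and did not pass the limma test (adjusted p = 0.200 over arrays and 0.502 over averages, exact permutation p = 0.0368 over arrays and 0.143 over averages). Pete1 replicates 1 and 2, like 6 WT arrays, lay at the floor, and pete1 replicates 4, 5, 7 and 8 lay above the highest WT array. With a floor of each array's own in place of the common one the change was 1.45 and passed over arrays (adjusted p = 0.0401), where 8.91% of probes were called higher, but not over averages (0.265). Those floors differ between arrays, and with them the median of all probes shifts by 0.15.

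AT5G19940 was measured on 7 of 8 pete1 arrays and on 8 of 8 WT arrays. Its deposited intensity ran from 0 to 0.289 in pete1, with a median of 0.110, and from 0.0959 to 0.237 in WT, with a median of 0.148. After normalization it averaged -3.03 ± 0.68 in pete1 and -2.87 ± 0.51 in WT (log2, SD, n = 8 arrays each), a difference of -0.17 (SE 0.29, interval -0.78 to 0.45, limma adjusted p = 0.751). Pete1 replicates 1 and 2 were its lowest arrays and replicates 7 and 8 were among its highest, and the sign of the difference was negative within replicates 1 to 4 (-0.58) and positive within replicates 5 to 8 (0.25), neither of which passed.

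AT1G51110 was also dim. It was listed at 0 on 4 of 8 pete1 arrays and on 0 of 8 WT arrays, and lay above the common floor on 3 pete1 and 5 WT arrays. Its deposited median was 0.0248 in pete1 and 0.0717 in WT. The normalized difference of 0.16 (SE 0.24, interval -0.35 to 0.67) did not pass (limma adjusted p = 0.708), and its sign turned with the scaling, to -0.30 on the deposited scale. Its highest values were on replicates 7 and 8 of both groups, at -3.08 and -2.79 in pete1 and at -3.65 and -3.02 in WT.

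The other scalings and floors gave AT2G46910 changes of -3.12 to -2.18 on the log2 scale, and it was called in each over arrays. The share of all probes called was 14.6% with a floor of each array's own, 11.5% with the floor added as an offset, 13.1% with cyclic loess, 12% with 75th-percentile scaling, 12.4% with median centring and 11.8% on the deposited scale.

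**Figure D3:**
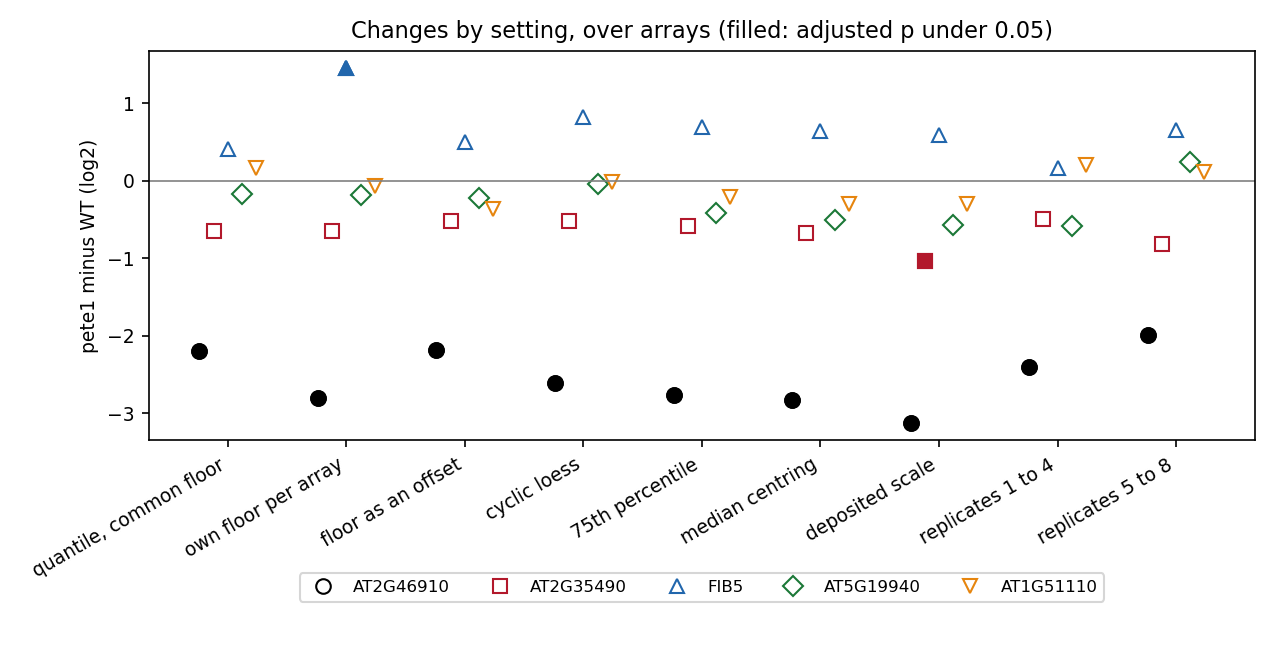
Difference pete1 minus WT (log2) of the 5 fibrillins with other floors, scalings and subsets of the arrays, with filled symbols where the adjusted p of the limma fit over arrays is under 0.05. AT2G46910 is filled in all 9 settings shown, AT2G35490 only on the deposited scale and FIB5 only with a floor of each array's own. The subsets were chosen after seeing the data.

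The changes of the 5 members were also set against each other. Values at the floor set the sizes of these differences, since AT2G46910 lay there on 6 pete1 arrays, FIB5 on 2 pete1 and 6 WT arrays, and AT1G51110 on 5 pete1 and 3 WT arrays. Of 10 pairs of members, 5 differed in their change over arrays (exact permutation test, two-sided, adjusted over the 10 pairs), and 0 of 10 did over averages. There 5 pairs at the smallest possible p of 0.0286 would still have an adjusted p of 0.0571, so the averages could not have called these 5 alone. The change of AT2G46910 minus that of the other member was -1.54 for AT2G35490 (adjusted p = 0.0023), -2.60 for FIB5 (0.0023), -2.03 for AT5G19940 (0.0051) and -2.35 for AT1G51110 (0.0041). The fifth pair was AT2G35490 minus FIB5, at -1.06 (adjusted p = 0.0214). Over averages the adjusted p of these pairs was 0.143 for the pairs with AT2G46910 and 0.171 for AT2G35490 and FIB5. Unadjusted, the exact p over averages was at its smallest, 0.0286, for AT2G46910 with AT2G35490 and with FIB5. It was 0.0571 for AT2G46910 with AT5G19940 and with AT1G51110, and 0.0857 for AT2G35490 with FIB5. All the pairs called over arrays except AT2G35490 with FIB5 include AT2G46910, so they are not separate from its own change. How often pairs of other probes differ in this way was not computed.

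As a description of how members varied together within the groups, the deviations of AT2G46910 and AT2G35490 from their group means had a Pearson correlation of 0.56 over 16 arrays. Those of FIB5 and AT5G19940 had one of 0.51, and those of AT2G46910 and AT1G51110 one of -0.47. The arrays share their consecutive pairs and the common floor, so these values carry no test.

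The genes whose profile over the 16 arrays was most like that of AT2G46910, among 421 probes that name 1 gene and lie above the floor on 12 or more arrays, were AT2G36480 (Pearson r = 0.93), PAC (0.92) and AT4G32340 (0.91). PAC is PALE CRESS, a chloroplast protein needed for plastid development. With group means removed the same correlations were 0.76, 0.65 and 0.74. Nearest to AT2G35490 were AT4G26370 (r = 0.91), the photosystem II assembly factor gene LPA19 (0.84) and AT3G26580 (0.82), with 0.88, 0.77 and 0.75 when group means were removed. The closest profiles were AT3G27550 to FIB5 (r = 0.75), AT4G31530 to AT5G19940 (0.81) and AT3G44020 to AT1G51110 (0.70), with 0.64, 0.83 and 0.76 when group means were removed. Their Spearman correlations, in the same order, were 0.72, 0.85 and 0.52. FIB5 and AT1G51110 each lay above the floor on 8 of 16 arrays, so the rest of their values are tied. The arrays share normalization and consecutive pairs.

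Beside the members, 5 probes list 2 or more genes, all of them fibrillins, and none of the 4 that could be fitted passed the limma test over arrays or averages, with 0 at an unadjusted p under 0.05 in either. The brightest of them, probe 1796, was at -0.57 ± 0.34 in pete1 and -1.06 ± 1.13 in WT (log2, SD, n = 8 arrays each, limma adjusted p = 0.476), where WT replicates 1 and 2 were the lowest arrays. It lists the members FIB5 and AT2G35490 with AT4G22240 and AT4G04020. Its difference of 0.49 had the opposite sign to that of AT2G35490's own probe, and 7 of 8 pete1 arrays lay above the WT median. Its deposited median was 0.553 in pete1 and 0.784 in WT. Which of its genes gave the signal was not tested. Probe 3363 had a difference of -0.61 (adjusted p = 0.347) and probe 2293 one of 0.20 (0.493). Probe 2870, which lists AT2G46910 with other fibrillins, was 0 on all 16 arrays, and probe 4428 was above 0 on 1 pete1 array. The own probe of AT2G46910 lay above the floor on all 8 WT arrays, so probe 2870 does not show that signal. No gene is named from these probes as changed.

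Beside the fibrillins, 8 lists were examined: plastoglobule, plastid lipid and jasmonate genes, plastocyanins, and markers of green tissue and of other organs. They were sparsely covered, and 8 of their 93 genes have a probe of their own. Of these 8, none rose and none fell over arrays or averages by the limma test, with 3 at an unadjusted p under 0.05 over arrays and 0 over averages (26.7% and 14.4% of all fitted probes). Among plastoglobule proteins, the metallopeptidase PGM48 averaged -2.17 ± 0.37 in pete1 and -2.70 ± 0.43 in WT (difference 0.53, limma adjusted p = 0.110), and the atypical kinase ABC1K6 averaged -2.40 ± 1.22 in pete1 and -1.71 ± 0.95 in WT (difference -0.69, adjusted p = 0.435; SD, n = 8 arrays each). AT1G32220 was above the floor on 1 WT array alone, and its difference of -0.46 (adjusted p = 0.552) rests on it.

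For tocopherol and phytol metabolism, VTE6, a phytyl phosphate kinase, averaged -0.51 ± 0.21 in pete1 and -1.48 ± 1.25 in WT (log2, SD, n = 8 arrays each; difference 0.97, limma adjusted p = 0.154). WT replicates 1 and 2, at -3.45 and -3.46, lay far below the other WT arrays, and over averages without them the difference was 0.31. CHLP, the geranylgeranyl reductase that supplies phytyl groups to tocopherol and chlorophyll, averaged 1.59 ± 0.29 in pete1 and 0.98 ± 0.57 in WT (difference 0.61, adjusted p = 0.0991). The zeta-carotene isomerase ZISO and the acyl thioesterase FATB had differences of -0.03 (adjusted p = 0.973) and 0.25 (0.780). None of the jasmonate synthesis genes or markers of other organs has a probe of its own, and of 12 green-tissue genes LHCB1.5 alone does (difference 1.16, adjusted p = 0.344). WT replicates 7 and 8, at 0.13 and 0.51, were the lowest arrays of LHCB1.5, and over averages without them the difference was 0.20.

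**Figure D4:**
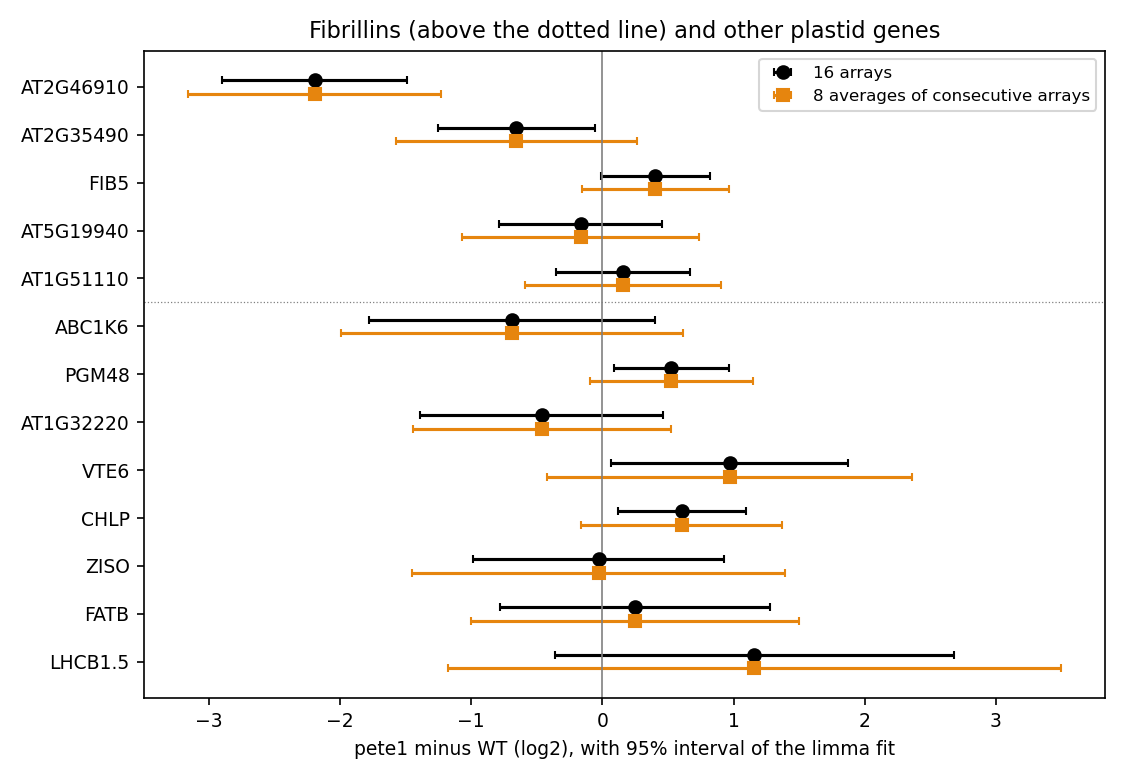
Difference pete1 minus WT (log2) with the 95% interval of the limma fit, not adjusted for the number of probes, for the 5 fibrillins above the dotted line and 8 other plastid genes below it, over 16 arrays (circles) and over 8 averages of consecutive arrays (squares). The interval of AT2G46910 runs from -2.90 to -1.49 over arrays and from -3.16 to -1.23 over averages, apart from 0 in both.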

How the data were processed

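The authors deposited 1 table of spot intensity per probe and array, linear and capped at 100. How they were scanned, corrected and scaled is not given in the sources used. Groups and replicate numbers come from the sample titles. Of 3439 probes, 692 list 1 gene, 870 several and 1877 none; 690 of the 692 matched RefSeq TAIR10.1, used for names alone.

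Intensities were quantile-normalized (limma 3.58.1, R 4.3.3). The common floor is the highest over arrays of the 5th percentile of positive values after scaling. It holds 28.4% of values, and 208 probes at it on all arrays were left out. The other 3231 were fitted with lmFit and eBayes, two-sided, without a block, with Benjamini-Hochberg adjustment. The fit was tested on simulated data with independent noise on each array and no floor, and the exact test on a made-up set of values. Neither covers arrays that deviate together or values at the floor. Alternatives were other floors, scalings and filters, averages of consecutive arrays, blocks, and arrays or pairs left out. Named genes are all members, the measured list genes and the 3 most alike probes per member. The members and lists were chosen with earlier results of these data known. The number of arrays limits the precision.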

Additional observations from a re-analysis of the deposited data

Results flagged for a closer look

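In 30 groups of 8 values (13 genes, the array medians and the shares of 0), 5 held a single array far from the nearest other. How many to expect by chance is not known, since many values lie at the floor and consecutive arrays deviate together. On the normalized log2 scale, AT2G46910 was at -2.31 on pete1 replicate 1, with the next pete1 value at -3.91 and the other 6 at the floor. FIB5 was at -3.36 on WT replicate 3, with the next at -4.01, and AT1G51110 at -3.02 on WT replicate 8, with the next at -3.65. AT1G32220 was at -0.41 on WT replicate 1, with all other arrays at the floor of -4.10. ZISO was at that floor (-4.10) on pete1 replicate 4, with the next at -3.01.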

How the results depend on the processing

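The subsets by replicate number, leaving out pete1 replicates 1 and 2 together, and the percentiles were chosen after seeing the data. AT2G46910 kept its negative sign in 42 of 42 settings (-3.12 to -1.99) and its call in 32, in all 16 with 1 array left out. The 10 losses were all over averages of consecutive arrays. Averages leave fewer samples. Consecutive arrays also deviate together (correlation 0.65 in the random block fit), and the unblocked fits over arrays count them as separate. The cause of the losses was not tested.

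Probes called were 408 (208 higher, 200 lower). The split was 288 and 184 with each array's own floor, 47 and 333 on the deposited scale, and 156 and 251 with median centring. Consecutive arrays averaged gave 25, with own floors 9, on the deposited scale 24, with median centring 28 and with cyclic loess 12; the random block gave 144. Leaving out 1 array gave 313 to 409, and leaving out 1 pair of the averages 1 (the pair 3 and 4 of either group) to 44 (the pair 1 and 2 of WT). The 1 member called became 2 with own floors (FIB5), on the deposited scale (AT2G35490) and with the replicate block (AT2G35490), and 0 over averages with the common floor, own floors and cyclic loess. It was 1 with each array left out and 0 to 1 with 1 pair left out. The 5 pairs of members with unequal change became 0 in each fit over averages and in replicates 1 to 4 alone, where fewer than 6 pairs at the smallest possible p cannot pass, so that 0 alone does not measure stability. In the main averages AT2G46910 with AT5G19940, AT2G46910 with AT1G51110, and AT2G35490 with FIB5 did not reach that smallest p. The pairs called were 5 to 6 with 1 array left out.

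No label explains the replicate numbers. The deviations of same-numbered pete1 and WT arrays correlated at 0.063 to 0.44, above 0.1 for 7 of the 8 numbers. Of the 16 arrays, 15 matched their own number best in the other group. Whether the arrays are paired by number is not settled, and the main fit has no block. The replicate block gave 566 probes (282 higher, 284 lower) and an adjusted p of 0.0271 for AT2G35490 and 0.0468 for CHLP. ABC1K6 was called in replicates 1 to 4 alone (-1.04, adjusted p = 0.0495).

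Signs turned for 4 genes that were not called in any setting. AT1G51110 was -0.063 with own floors, -0.36 with an offset, -0.30 on the deposited scale, -0.31 with median centring (all but the offset over averages too), -0.018 with cyclic loess, also over averages, -0.21 with 75th-percentile scaling, and -5.56 percentile points; with 1 pair left out it ran from -0.098 to 0.33. AT5G19940 was 0.25 in replicates 5 to 8 and 0.13 without pete1 replicates 1 and 2, and ran from -0.43 to 0.13 with 1 pair left out. FATB was -0.069 on the deposited scale, also over averages, and -0.14 in replicates 5 to 8, and ran from -0.091 to 0.39 with 1 array left out and from -0.14 to 0.57 with 1 pair left out. ZISO was 0.091 with own floors and 0.17 with cyclic loess, both also over averages, 0.051 with an offset and 0.52 in replicates 5 to 8, and ran from -0.25 to 0.19 with 1 array and from -0.41 to 0.42 with 1 pair left out. Values at the floor limit what FIB5 and AT1G51110 can show.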
